A study of Mus musculus with 10 samples.

Results

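Threonine, glycine and one-carbon enzymes were followed through mouse embryonic fibroblasts (MEF), pre-iPS cells and induced pluripotent stem (iPS) cell lines. The set held 10 enzymes picked by name: Tdh and Gcat, which break threonine down, Gldc and Amt of the glycine cleavage system, Shmt2, Mthfd2 and Mthfd1l of the mitochondrial folate pathway, and Phgdh, Psat1 and Psph of serine synthesis. All 10 were among the 18901 genes listed, and all 10 were among the 17075 genes that reached a value of 10 in 2 or more libraries. Polyadenylated RNA of 5 lines was sequenced in 10 libraries, 2 passages of each line. The MEF (passages 2 and 4, DMEM with serum) carried an Oct4-GFP reporter on a cross of mf1 and 129, and this strain was shared by every line. A control iPS line and the "Netrin-1 derived" iPS clone 1 and clone 2, which the study obtained with recombinant Netrin-1 (passages 5 and 25, KSR+LIF medium), represented reprogrammed cells. The labels name retroviruses for Oct4, Sox2, Klf4 and c-Myc as the reprogramming agents. The pre-iPS line (passages 5 and 25) stood for incomplete reprogramming, since the study describes it as keeping its transgenes active and Oct4-GFP silent. Each line was a single line, so passages were repeat samples of a line and not separate derivations, and p-values measured the spread between these samples. According to the methods, pluripotent lines were kept on gelatin or on irradiated MEF, and which of these applied to each library was not given. The methods name KSR-based media with LIF for pre-iPS as well as iPS cells.

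Cells make serine from a glycolytic intermediate through Phgdh, Psat1 and Psph in turn. Mitochondrial Shmt2 then splits serine into glycine and a one-carbon unit carried on folate. Mthfd2 oxidises that unit and Mthfd1l releases it as formate, which leaves for nucleotide synthesis in the cytosol. The glycine cleavage system, of which Gldc (decarboxylase) and Amt (aminomethyltransferase) are parts, draws a further one-carbon unit from glycine. Tdh (threonine dehydrogenase) and Gcat convert threonine to glycine and acetyl-CoA, a route on which mouse embryonic stem cells are known to depend.

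The promoters of Gldc and Amt, the pair with the lowest fold changes in pre-iPS cells against iPS lines, and of Gcat, which alone held a searched motif, are shown from 250 bases before to 20 bases after the RefSeq start. The windows lie on GRCm38.p6, 5′ to 3′ on the strand of the gene, at chr19:30175422-30175691 (minus) for Gldc, chr9:108296655-108296924 (plus) for Amt and chr15:79030624-79030893 (plus) for Gcat. Capitals mark the E-box CACGTG.
Gldc: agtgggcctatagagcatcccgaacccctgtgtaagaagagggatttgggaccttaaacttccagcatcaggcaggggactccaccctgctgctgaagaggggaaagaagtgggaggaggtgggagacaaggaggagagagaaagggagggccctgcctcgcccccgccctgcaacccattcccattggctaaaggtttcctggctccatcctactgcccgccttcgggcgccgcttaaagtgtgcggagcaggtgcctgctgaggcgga
Amt: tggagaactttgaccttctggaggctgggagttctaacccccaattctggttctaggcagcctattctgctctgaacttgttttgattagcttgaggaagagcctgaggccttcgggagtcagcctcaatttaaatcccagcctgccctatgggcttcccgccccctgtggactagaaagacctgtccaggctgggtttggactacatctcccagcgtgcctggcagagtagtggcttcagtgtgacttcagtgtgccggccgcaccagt
Gcat: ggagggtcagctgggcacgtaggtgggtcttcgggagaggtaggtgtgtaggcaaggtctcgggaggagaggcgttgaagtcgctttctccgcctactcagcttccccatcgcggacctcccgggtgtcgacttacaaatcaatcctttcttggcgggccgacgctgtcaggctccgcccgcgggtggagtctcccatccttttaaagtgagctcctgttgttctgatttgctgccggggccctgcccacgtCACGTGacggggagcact
The motif search used windows of 250 bases before to 50 after the start, on both strands. Such windows were found for 9 of the 10 genes (Tdh was not among them). The core TGATGNAA, bound by Atf4 with a C/EBP partner, was in 0 of 9 genes against 3.97% of 32851 windows of all genes. CACGTG was in 1 of 9, Gcat, against 7.15% of all windows. A match of letters is a description and not a binding site.

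Libraries held 38110410 to 52946856 reads on genes. The summed value of 10 fibroblast markers was 2866000 to 3010000 in MEF and 20720 to 34770 in the other libraries, with all 10 markers at 10 or more in every library. The summed value of 10 pluripotency markers was 1134 to 1261 in MEF, 20850 to 21870 in pre-iPS cells and 37340 to 92050 in the iPS lines. These pluripotency markers thus ran in the order of the labels. Fibroblast markers did not, with sums of 21740 and 20720 in pre-iPS cells and of 20790 to 34770 in the iPS lines. MEF also held 8 macrophage markers at a summed value of 13710 to 13760, against 449.5 to 1672 elsewhere. All 8 were at 10 or more in MEF, but only 3 or 4 of them in each other library. The part of the fibroblast and macrophage RNA in the differences below was not tested. Bulk RNA cannot separate fewer cells of a type from less RNA per cell. Values are the deposited normalized read counts. A fold change is a difference of line means of log2(value + 1), and a gene was called where its adjusted p was below 0.05 and it differed by 1 or more on that scale (limma, Benjamini-Hochberg over 17075 genes).

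The question of the first comparison was how RNA for these enzymes differed between starting fibroblasts and reprogrammed lines. MEF also differed from the other lines in culture medium, so medium and cell state cannot be told apart in comparisons with MEF. Both threonine enzymes, both glycine cleavage enzymes and Mthfd1l were lower in MEF than in the 3 iPS lines, while the serine synthesis enzymes, Shmt2 and Mthfd2 differed by less than the threshold in either direction. Of the 10 enzymes, 5 were called, 0 higher and 5 lower in MEF, where 48.2% of all genes were called in either direction. All 10 had an adjusted p under 0.05, as did 79.3% of all genes, although Shmt2, Phgdh, Psat1 and Psph lost this under another scaling, as given with each. The plot of values by library shows the spread behind these differences.

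**Figure D1:**
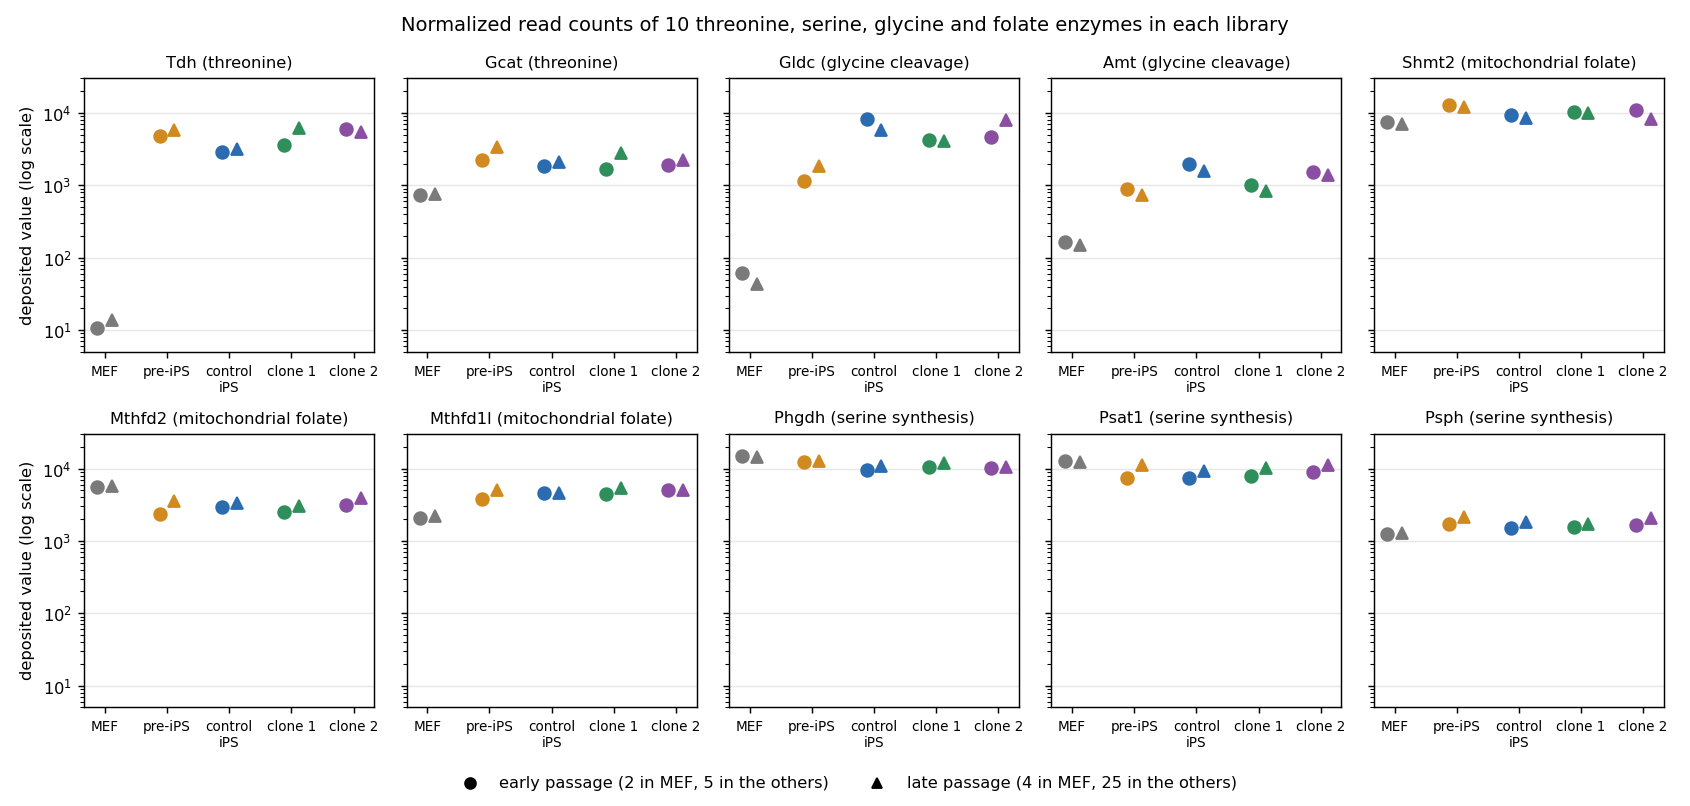
Deposited normalized value on a log scale in each of 10 libraries, 1 panel per enzyme, with circles for the early and triangles for the late passage of each line. Tdh, Gldc and Amt in MEF sat far below every other library, and Phgdh, Psat1 and Psph lay on nearly level lines.

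Tdh (chr14:63492347-63509092, minus strand, GRCm38) showed the largest difference of the 10. Its values were 10.80 and 13.69 in MEF, 2895 and 3220 in the control iPS line, 3625 and 6109 in clone 1, while clone 2 gave 6006 and 5540. The lowest iPS library was far above both MEF libraries. The fold change of MEF against iPS was -8.37 on the log2 scale (SE 0.19, 95% interval -8.80 to -7.95, adjusted p = 6.28e-09), and the iPS mean was 373 times the MEF mean. Gcat, the next enzyme in the route, had values of 737.5 and 767.1 in MEF and of 1699 to 2841 in the 6 iPS libraries (median 2005), with no overlap. It fell by 1.46 on the log2 scale in MEF (SE 0.21, adjusted p = 1.82e-04). In MEF, Tdh thus lay near the filter value of 10 and Gcat well above it. The counting of strands was not given and the library kit does not mark strand, and Tdh overlaps Gm17232 on the other strand, so reads of this pair cannot be told apart.

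Gldc (chr19:30098447-30175429, minus strand) followed the same order of cell states as Tdh in this comparison. Its values were 61.93 and 43.51 in MEF, 8265 and 5760 in the control, 4172 and 4091 in clone 1, while clone 2 gave 4644 and 8037. The fold change was -6.72 (SE 0.26, adjusted p = 7.48e-08), a ratio of means of 111. Amt (chr9:108296853-108302302, plus strand) had values of 167.4 and 151.1 in MEF, 1988 and 1561 in the control, 1027 and 838.6 in clone 1, while clone 2 gave 1551 and 1407. Every iPS library was above both MEF libraries, and Amt fell by 3.07 in MEF on the log2 scale (SE 0.14, adjusted p = 1.48e-07). The other parts of the same complex, named here after their values were seen, were close to level. Gcsh, the lipoyl carrier, had a fold change of -0.33 (adjusted p = 0.00196) and Dld, the dehydrogenase shared with other complexes, of 0.09 (95% interval -0.05 to 0.23, adjusted p = 0.19).

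Among the mitochondrial folate enzymes the directions were mixed. Mthfd1l (formate-tetrahydrofolate ligase) had values of 2096 and 2205 in MEF and of 4503 to 5365 in the iPS lines (median 4788), and fell by 1.17 in MEF (SE 0.11, adjusted p = 1.18e-05). Mthfd2 went the other way, with 5614 and 5769 in MEF against 2547 to 3946 in the iPS lines (median 3076), a fold change of 0.87 (SE 0.16, adjusted p = 7.87e-04) that stayed under the fold threshold. The groups did not overlap for either gene, and the share of all genes without overlap was not computed. The call on each depended on the scaling. Libraries were also scaled to the housekeeping genes Gapdh, Actb, Hprt and Tbp, which themselves differed between MEF and the other libraries. The fold change of Mthfd1l was then -0.78 and no longer called, and that of Mthfd2 was 1.26 and called. Shmt2 had 7488 and 7148 in MEF and 8169 to 10940 in the iPS lines (median 9714), a fold change of -0.37 (SE 0.10, adjusted p = 0.00828) that became 0.01 (adjusted p = 0.901) under housekeeping scaling.

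The serine synthesis enzymes were abundant in every line. Phgdh, the first enzyme of the pathway, had values of 14690 and 14310 in MEF and 9489 to 11750 in the iPS lines (median 10370), a fold change of 0.47 (SE 0.07, adjusted p = 2.19e-04). Psat1, the aminotransferase, had 12640 and 12470 in MEF against 7487 to 11350 (median 9189), also a fold change of 0.47 (SE 0.17, adjusted p = 0.0323). Psph, the phosphatase of the last step, had 1257 and 1275 in MEF against 1529 to 2040 (median 1696), a fold change of -0.44 (SE 0.12, adjusted p = 0.00881). MEF and iPS values did not overlap for any of the 3, and none reached the fold threshold. The share of all genes without overlap was not computed, so the lack of overlap is a description only. Under quantile normalization the fold change was 0.03 for Phgdh (adjusted p = 0.744) and 0.06 for Psat1 (adjusted p = 0.801), and under housekeeping scaling it was -0.05 for Psph (adjusted p = 0.725), so these differences depended on the scaling.

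**Figure D2:**
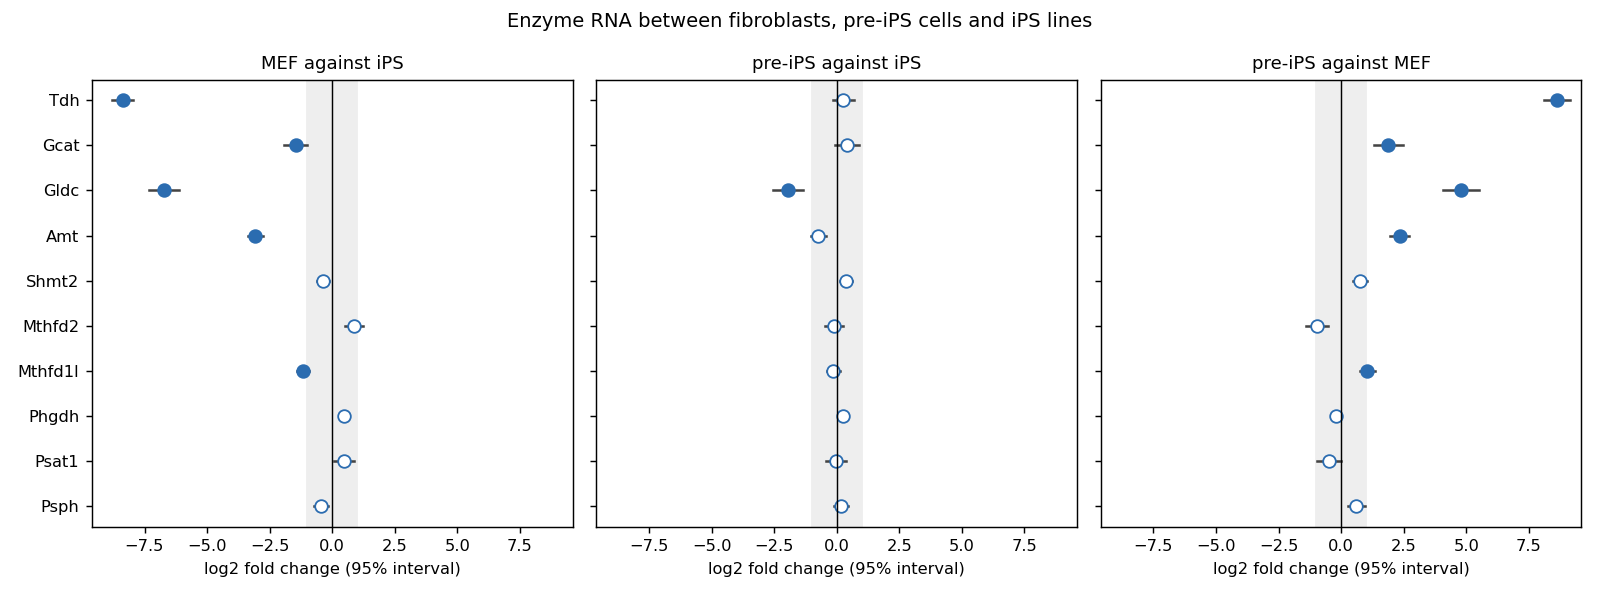
Log2 fold change (points) with its 95% interval (lines) of each enzyme in 3 comparisons, first group less second, filled where called, with the band of absolute values under 1 shaded. Tdh lay at -8.37 in MEF against iPS and at 8.64 in pre-iPS against MEF but at 0.26 in pre-iPS against iPS, while Gldc was at -1.93 there.

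Levels of different enzymes were compared as value per kb of annotated exon. In MEF, Phgdh was highest at 5830 ± 109 (SD, n = 2), followed by Psat1 at 2950 ± 28.3, Shmt2 at 2350 ± 77.4 and Mthfd2 at 1630 ± 31.3. Mthfd1l at 485 ± 17.4, Gcat at 433 ± 12, Psph at 292 ± 2.96 and Amt at 65.4 ± 4.73 came next, with Gldc at 8.66 ± 2.14 and Tdh at 4.68 ± 0.781 last. In the iPS lines, Phgdh at 4210 ± 302 (SD, n = 6) and Shmt2 at 3070 ± 339 led. Psat1 at 2160 ± 336 and Tdh at 1750 ± 564 came next and lay within their spread of each other. Gcat at 1210 ± 236, Mthfd1l at 1100 ± 79.5, Gldc at 957 ± 311 and Mthfd2 at 901 ± 134 formed a run of neighbours that did not differ beyond their SD. Amt at 573 ± 169 and Psph at 398 ± 43.8 were lowest. The spread of Tdh also reached that of Gcat, and in the control line Tdh at 1170 ± 88, Gldc at 1150 ± 291 and Gcat at 1140 ± 111 (SD, n = 2) were level. These orders by value per kb rest on the annotated exons.

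**Figure D3:**
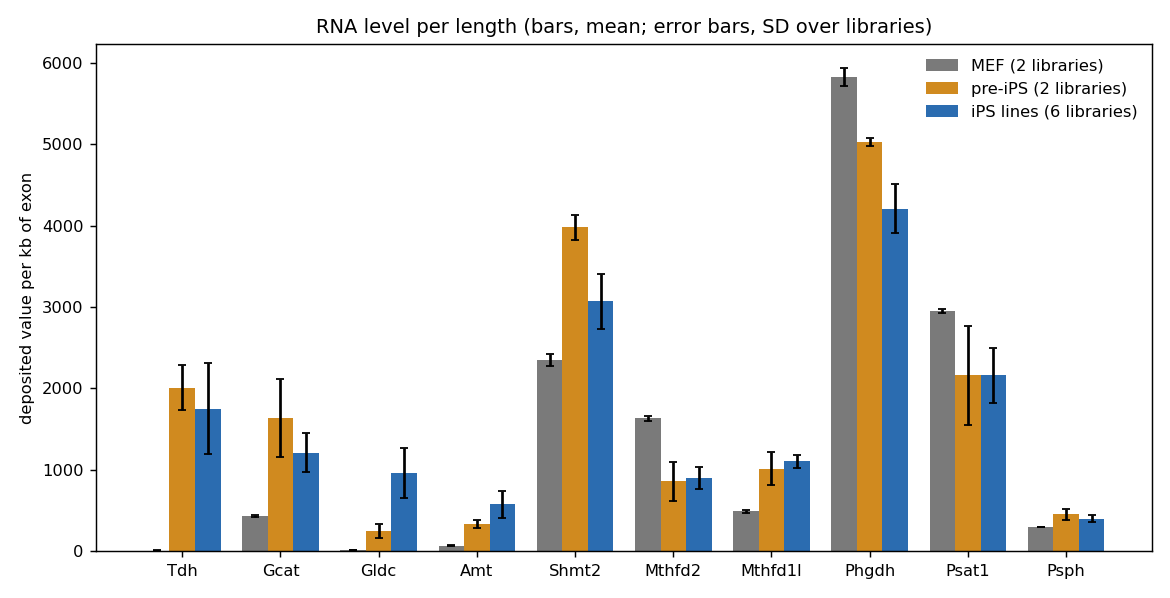
Deposited value per kb of exon (bars, mean, linear axis from 0; error bars, SD over libraries) for 2 MEF, 2 pre-iPS and 6 iPS libraries. Phgdh was highest in each group, at 5830 in MEF and 4210 in the iPS lines, and the bars of Tdh and Gldc in MEF are too short to see at 4.68 and 8.66.

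The next comparison asked how the pre-iPS line, which had not reached the iPS state, differed from the 3 iPS lines, with the same iPS libraries serving as the second group. Of the 10 enzymes, 1 was called, 0 higher and 1 lower, where 16.3% of all genes were called. At an adjusted p alone 4 of 10 passed, against 39.6% of all genes. Gldc was the called gene, at 1150 and 1868 in pre-iPS cells, below the lowest iPS library at 4091. Its fold change was -1.93 (SE 0.26, adjusted p = 6.98e-04), and the iPS mean was 3.86 times the pre-iPS mean. Amt was at 893.7 and 730.7, below the control and clone 2 but overlapping clone 1, with a fold change of -0.73 (SE 0.14, adjusted p = 0.0035). Gcsh, named after its values were seen, had a fold change of -0.39 (adjusted p = 0.00269).

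Tdh was not called between pre-iPS cells and the iPS lines. Its values of 4744 and 5782 in pre-iPS cells lay inside the iPS range of 2895 to 6109, with a fold change of 0.26 (95% interval -0.16 to 0.69, adjusted p = 0.293). Both were above the control line (2895 and 3220) and inside the range of the clones (3625 to 6109). Pre-iPS cells were not tested against the control line alone. Gcat at 2260 and 3436 also overlapped (0.43, 95% interval -0.05 to 0.90, adjusted p = 0.138). Shmt2 at 12710 and 12020 and Phgdh at 12420 and 12580 were above every iPS library, by 0.38 (SE 0.10, adjusted p = 0.0178) and 0.26 (SE 0.07, adjusted p = 0.0178) on the log2 scale. Under some alternatives the adjusted p of each rose above 0.05, and the share of all genes without overlap was not computed. Mthfd2 (-0.09, 95% interval -0.45 to 0.26), Mthfd1l (-0.13, -0.38 to 0.12), Psat1 (-0.02, -0.41 to 0.38) and Psph (0.17, -0.11 to 0.44) overlapped the iPS lines, with adjusted p of 0.669, 0.379, 0.951 and 0.301.

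Pre-iPS cells were then set against MEF, using libraries already used in the preceding comparisons. Of the 10 enzymes, 5 were called, all 5 higher in pre-iPS cells, where 43.2% of all genes were called. These were Tdh (8.64, SE 0.23, adjusted p = 2.23e-08), Gldc (4.79, SE 0.32, adjusted p = 2.39e-06), Amt (2.34, SE 0.17, adjusted p = 3.53e-06), Gcat (1.89, SE 0.26, adjusted p = 1.77e-04) and Mthfd1l (1.04, SE 0.13, adjusted p = 1.31e-04). At an adjusted p alone 9 of 10 passed, against 70.6% of all genes, with Shmt2 at 0.76, Psph at 0.61, Phgdh at -0.21 and Mthfd2 at -0.96. Under quantile normalization Phgdh turned to 0.25 (adjusted p = 0.0535) and Shmt2 was at 1.13 and called, and under housekeeping scaling Psph was at 0.19 (adjusted p = 0.281) and Mthfd2 at -1.38 and called. Psat1 did not pass (-0.48, 95% interval -0.96 to 0.00, adjusted p = 0.0673). The call of Mthfd1l was lost without the late-passage pre-iPS library (0.84) and under housekeeping scaling (0.63). Without that library Mthfd2 was at -1.26 and called. Set side by side, pre-iPS cells had Tdh in the range of the iPS lines and Gldc between MEF and the iPS lines, a description from contrasts that share libraries.

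The comparison of the Netrin-1 derived clones with the control iPS line asked whether these enzymes differed between lines obtained under different conditions. With limma, 0 of 10 enzymes were called for both clones against the control, where 2.11% of all genes were, with 2 of 10 at an unadjusted p under 0.05 and 0 called by edgeR or DESeq2 on the recovered reads. The pair with the smallest p-values were Tdh and Amt. All 4 clone libraries were above both control libraries for Tdh (0.77 on the log2 scale, SE 0.20, adjusted p = 0.0735) and all 4 were below both for Amt (-0.59, SE 0.14, adjusted p = 0.0639). With the passage as a block, which the pairing of passages allowed, the fit used the 8 libraries without MEF. The adjusted p was then 0.0263 for Tdh and 0.00679 for Amt, both still under the fold threshold. The part of the block and that of leaving out MEF were not separated. Over all alternatives the adjusted p ran from 0.00395 to 0.278 for Tdh and from 0.00331 to 0.31 for Amt, lowest with DESeq2. Without the passage 5 library of clone 1, Tdh was at 0.96 with an adjusted p of 0.0177. Gldc overlapped (-0.46, 95% interval -1.09 to 0.17, adjusted p = 0.451).

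Split by clone, 0 of 10 were called in either by limma, edgeR or DESeq2, where 1.41% of all genes were called for clone 1 and 2.42% for clone 2, with 3 and 1 of 10 at an unadjusted p under 0.05. Amt in clone 1 had an adjusted p under the threshold at less than the required fold (-0.92, SE 0.17, adjusted p = 0.0329), the single one of 10 to do so where 2.48% of all genes did. In clone 2 Amt was at -0.25 (adjusted p = 0.473). Tdh was at 0.62 in clone 1 (adjusted p = 0.211) and at 0.92 in clone 2 (adjusted p = 0.065, and 0.0237 with the passage block, range over alternatives 0.00406 to 0.196). Between the clones themselves 0 of 10 were called by limma, edgeR or DESeq2, where 0.966% of all genes were, with 1 of 10 at an unadjusted p under 0.05. Amt was 0.67 higher in clone 2 than in clone 1 (SE 0.17, adjusted p = 0.0999, and 0.0156 with the passage block, range over alternatives 0.00975 to 0.349) with no overlap of libraries. The clone contrasts share the control libraries and hold 1 line each, so a clone and its derivation cannot be told apart.

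**Figure D4:**
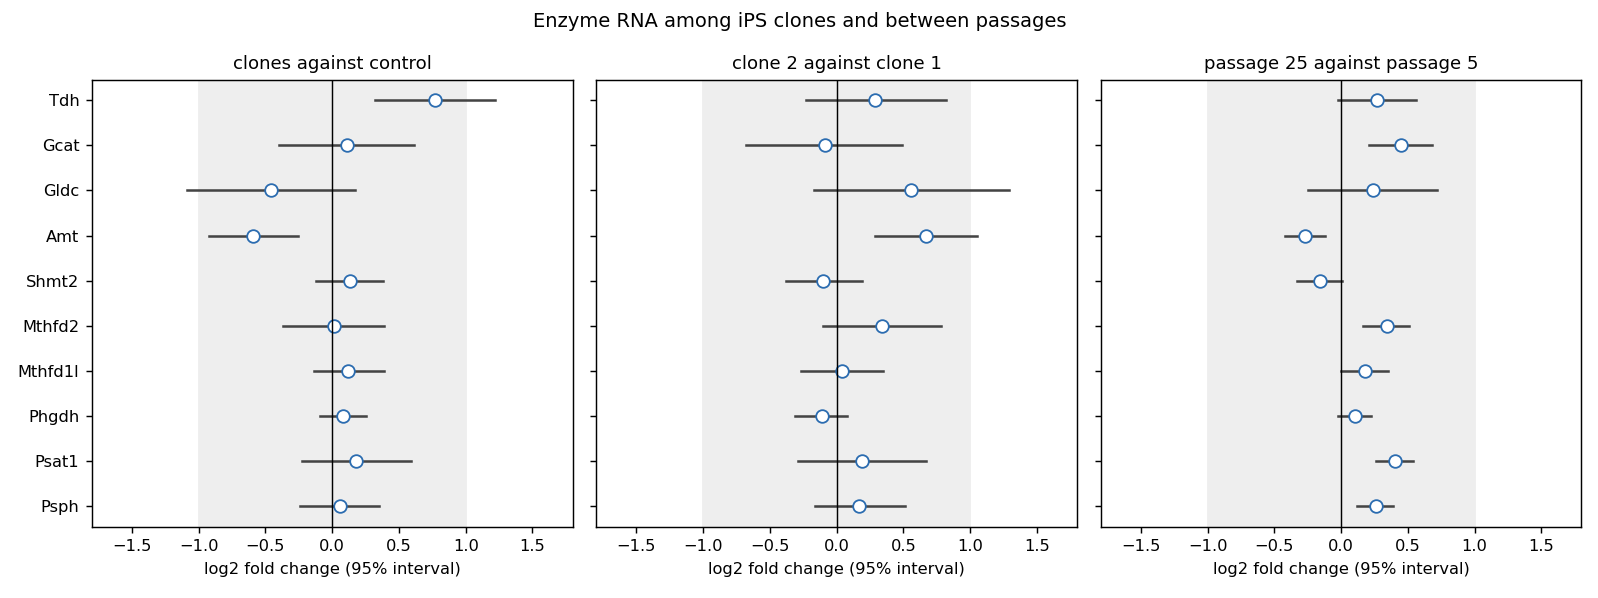
Log2 fold change with its 95% interval for both clones against control, clone 2 against clone 1, and passage 25 against passage 5; open points were not called and the band of absolute values under 1 is shaded. Tdh at 0.77 and Amt at -0.59 stood furthest from 0 in clones against control, and Psat1 at 0.40 had the smallest p of the passage comparison.

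Passage was compared within the 4 pre-iPS and iPS lines, with line as a block over 8 libraries. With limma, 0 of 10 enzymes were called, where 1.69% of all genes were, with 5 of 10 at an unadjusted p under 0.05 and 0 called by edgeR or DESeq2. At an adjusted p alone 5 of 10 passed, against 10.9% of all genes. Psat1 was higher at passage 25 in 4 of 4 lines, with 7336 to 9036 at passage 5 and 9342 to 11350 at passage 25 and no overlap (0.40, SE 0.06, adjusted p = 0.00963). Gcat (0.45, adjusted p = 0.0334), Mthfd2 (0.34, adjusted p = 0.0325) and Psph (0.26, adjusted p = 0.0352) were also higher in 4 of 4 lines, and Amt was lower in 4 of 4 (-0.27, adjusted p = 0.0427). Psph did not overlap either, with 1529 to 1717 at passage 5 and 1722 to 2161 at passage 25. A common direction was not particular to the enzymes that passed. Phgdh was higher in 4 of 4 lines (0.10, adjusted p = 0.229) and Shmt2 lower in 4 of 4 (-0.16, adjusted p = 0.185). The share of all genes with a common direction, or without overlap, was not computed. Gldc had no common direction, with a late-to-early ratio of 0.697 in the control line, 0.981 in clone 1, 1.73 in clone 2 and 1.63 in pre-iPS cells. In MEF, passages 2 and 4 gave ratios of 1.04 for Gcat, 1.03 for Mthfd2, 0.987 for Psat1 and 1.01 for Psph, a shorter interval that is given as values only. Leaving out 1 library raised the adjusted p above 0.05 for each of the 5, to at most 0.0714 for Psat1 and 0.206 for Amt (both without clone 1 at passage 5), 0.154 for Gcat and 0.129 for Mthfd2 (without clone 1 at passage 25) and 0.143 for Psph (without pre-iPS at passage 25). The summed macrophage markers were lower at passage 25 in all 4 lines, at 1048 and 449.5 in the control, 1290 and 490.7 in clone 1, 1256 and 734.7 in clone 2, and 1672 and 911.2 in pre-iPS cells. These sums rest on the 3 or 4 of 8 markers that reached 10 there, and do not by themselves show macrophages. Their part in the passage differences was not tested.

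The neighbouring steps of the pathway were taken from a list of 84 other genes, of which 83 were listed and 80 passed the filter. In MEF against iPS 41 of the 80 were called (51.2%), 17 higher and 24 lower, with a median log2 fold change of -0.27 beside -0.087 over all genes. In pre-iPS against iPS 9 of 80 were called (11.2%), 6 higher and 3 lower. In pre-iPS against MEF 40 of 80 were called (50.0%), 27 higher and 13 lower. They stand beside the 48.2%, 16.3% and 43.2% of all genes, and the list was not tested as a set.

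Of 17 other folate genes, cytosolic and mitochondrial, 8 were called in MEF against iPS (47.1%), 4 higher and 4 lower (median -0.09). Over all genes the share was 48.2% and the median -0.087, so the list was close to all genes in both. It was not tested as a set. Mthfd1, the cytosolic enzyme that takes up formate, was at 3069 and 3111 in MEF, 11440 to 14830 in the iPS lines and 14930 and 17300 in pre-iPS cells (MEF against iPS -2.07, SE 0.08, adjusted p = 9.27e-08). Folr1, a folate receptor, was also lower in MEF (-3.10, adjusted p = 2.11e-06) and in pre-iPS cells against iPS (-1.43, adjusted p = 0.00137). The formyl-tetrahydrofolate dehydrogenases, which return folate units to carbon dioxide, were higher in MEF: Aldh1l2 at 9241 and 9254 against 344.2 to 735.2 in the iPS lines (4.20, SE 0.28, adjusted p = 1.41e-06) and Aldh1l1 (2.22, adjusted p = 1.49e-05). Aldh1l1 was also higher in pre-iPS cells than in the iPS lines (1.26, adjusted p = 0.00225), although these overlapped.

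Of 13 genes of purine and pyrimidine nucleotide synthesis, most of which use no folate themselves, 8 were called in MEF against iPS (61.5%, against 48.2% of all genes), all lower (median -1.23). With limma 0 of the 13 were called in pre-iPS against iPS (6 at an unadjusted p under 0.05), where 16.3% of all genes were. In pre-iPS against MEF 10 were called (76.9%, against 43.2% of all genes), all higher (median 1.45). The 3 that use a folate cofactor, named after their values were seen, were Gart at -1.87 (adjusted p = 2.93e-08, called), Tyms at -0.66 (adjusted p = 3.63e-05) and Atic at -0.64 (adjusted p = 8.43e-06) in MEF against iPS, the last pair under the fold threshold. Ppat, the entry enzyme of purine synthesis, was at -2 in MEF against iPS (adjusted p = 3.34e-08) and at 1.89 in pre-iPS against MEF (adjusted p = 2.00e-07). Dut, which supplies dUMP, was at -2.07 (adjusted p = 6.88e-07) and 1.96 (adjusted p = 5.15e-06). Of 18 other serine and glycine genes tested, 14 were called in MEF against iPS (77.8%, against 48.2% of all genes), 7 higher and 7 lower. Sardh (sarcosine dehydrogenase, 4.01, adjusted p = 6.35e-07) and Slc6a9 (a glycine transporter, 2.69, adjusted p = 3.01e-06) were higher in MEF. Cbs, which commits homocysteine to cysteine, was lower (-2.79, adjusted p = 4.08e-08), and Dmgdh was listed at 0 in both MEF libraries. In pre-iPS cells Cth, the next enzyme after Cbs, was 1.64 above the iPS lines (adjusted p = 3.01e-05) and Dmgdh 1.22 above (adjusted p = 0.0253). Dmgdh lay near the filter value of 10, at 20.4 and 27.84 in pre-iPS cells against 4.958 to 12.57 in the iPS lines. Shmt1, the cytosolic counterpart of Shmt2 and named after its values were seen, was at 715.8 and 767.9 in MEF and 3250 to 4558 in the iPS lines (-2.40, adjusted p = 7.50e-08).

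**Figure D5:**
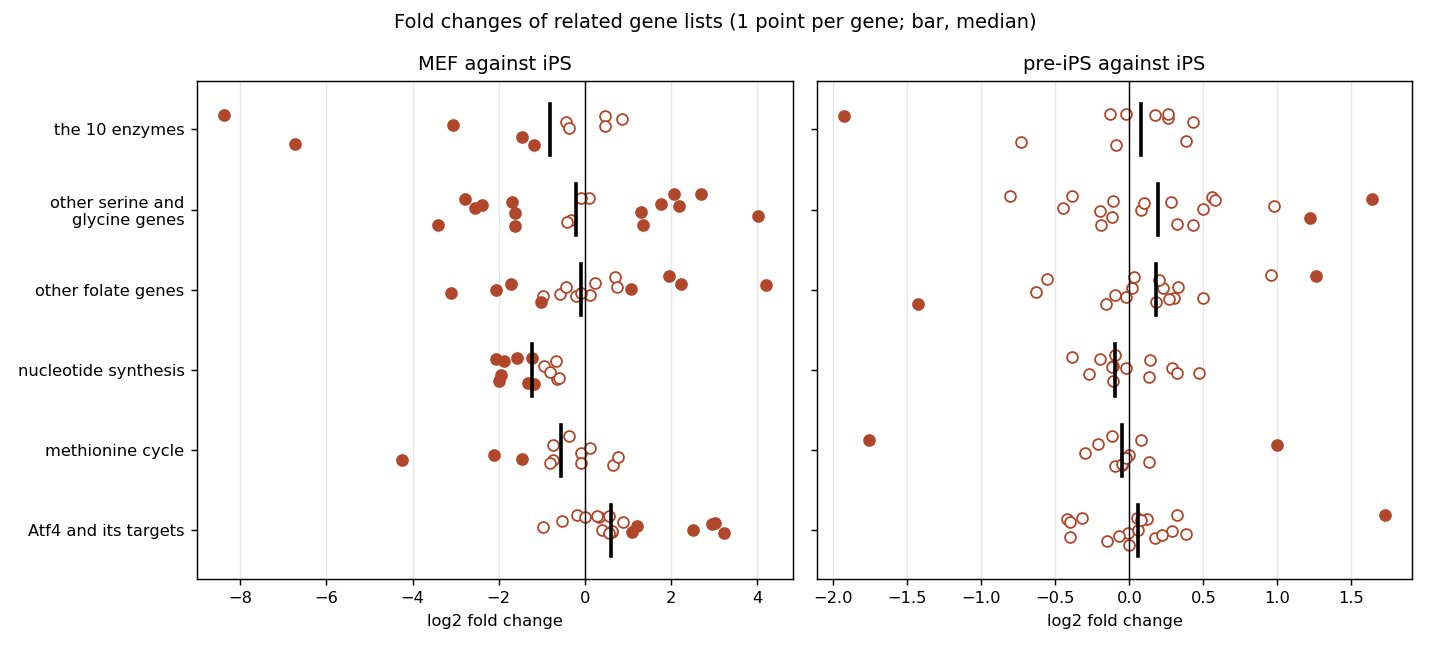
Log2 fold change of each tested gene in MEF against iPS and in pre-iPS against iPS, by gene list (1 point per gene, filled where called, bar at the median; the horizontal axes differ). The 13 nucleotide synthesis genes all lay below 0 in MEF against iPS with a median of -1.23 and around a median of -0.10 in pre-iPS cells.

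In the methionine cycle, 3 of 12 tested genes were called in MEF against iPS (25.0%, against 48.2% of all genes), all lower. Sms (spermine synthase) was at -2.11 (adjusted p = 3.32e-08), and Mat1a was listed at 0 in both MEF libraries. Mtr (methionine synthase, which draws on methyl-folate) was 1.00 higher in pre-iPS cells than in the iPS lines (adjusted p = 0.0013) and Mat1a was lower (-1.76, adjusted p = 0.00909). Mat1a lay near the filter value of 10, at 7.143 and 2.877 in pre-iPS cells against 10.27 to 25.14 in the iPS lines. Of the list of Atf4, a regulator of amino acid supply, and its targets, 6 of 18 were called in MEF against iPS, all higher (median 0.61), a share of 33.3% against the 48.2% of all genes. Atf4 itself was at 14880 in both MEF libraries, 5710 to 8289 in the iPS lines and 7568 and 10820 in pre-iPS cells, which was 1.09 higher in MEF than in the iPS lines (SE 0.14, adjusted p = 8.45e-05). Ddit3 (3.24, adjusted p = 1e-06) and Trib3 (3.02, adjusted p = 4.25e-07), stress-linked targets, were also higher in MEF. Slc7a11, a cystine carrier, was higher in pre-iPS cells than in the iPS lines (1.73, adjusted p = 0.00568) with overlapping libraries. Against MEF, pre-iPS cells were higher for Slc7a11 (2.26, adjusted p = 0.00155) and lower for Trib3 (-3.17, adjusted p = 1.73e-06) and Vldlr (-3.27, adjusted p = 1.53e-07).

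Values of Myc and Mycn are given because c-Myc was a reprogramming factor. Myc was at 2594 and 2481 in MEF, 44610 to 88310 in the iPS lines and 126800 and 139900 in pre-iPS cells, and reads of a retroviral c-Myc cannot be told apart from those of the gene. Mycn was at 114.7 and 83.78 in MEF, 1192 to 2275 in the iPS lines and 248.9 and 178.6 in pre-iPS cells (pre-iPS against iPS -3.00, SE 0.21, adjusted p = 2.12e-05). Among the clones, 1 of 80 listed genes was called for both clones against the control and 1 for clone 2, both named after their values were seen. That is 1.25% of the list in each case, against 2.11% and 2.42% of all genes, so it is no excess. Slc7a11 was 1.87 lower in the clones (adjusted p = 0.0342), with 1488 and 2770 in the control against 329.4 to 739.0 in the clones. Aldh1l1 was 1.44 higher in clone 2 than in the control (adjusted p = 0.0253).

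The genes whose profile over 10 libraries was most like that of Tdh were Gdf3 (Pearson r = 0.9989 on the log2 scale), 2010204K13Rik (0.9981) and H60c (0.998). Gdf3 was at 42.84 and 47.44 in MEF and at 1542 to 2568 elsewhere. H60c was at 7.175 and 8.432 in MEF and at 1006 to 2035 elsewhere. The libraries share the same MEF samples at the low end, and 2916 genes (17.1%) had r above 0.9 with Tdh, so such a likeness was common in these data.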

How the data were processed

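RNA of 10 libraries was read as polyadenylated RNA-seq (50-base single reads, 1 lane). Per the labels and the submitters' processing notes, the authors used CASAVA 1.8.2, FastQC, TopHat2 2.0.8b, HTSeq 0.5.3p9 and edgeR on mm10; the annotation and strand setting are not given in the sources used here. The deposited values are a signal on a common scale, edgeR pseudo-data normalized between libraries. Whole reads were recovered for 100% of values (within 0.1 of a read), giving 38110410 to 52946856 reads per library. Counting error is largest for genes at a few reads, such as Tdh in MEF.

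The 17075 genes that reached 10 in 2 or more of 10 libraries were tested on log2(value + 1) with limma 3.58.1 in R 4.3.3, with 1 mean per line. The iPS mean was that of 3 lines. The passage comparison used 8 libraries with line as a block. A value of 0 enters with the pseudocount of 1. Calling needed an adjusted p below 0.05 and a log2 fold change of 1 or more in either direction. edgeR 4.0.16 and DESeq2 1.42.0 were run on the recovered reads as alternatives chosen after seeing the data. The other alternatives were pseudocounts of 0.5 and 5, no filter, a mean of at least 50, quantile and housekeeping scaling, adjusted p alone, only the lines compared, passage as a block (without MEF), and each library left out. The scripts were tested on simulated data. Passages 5 and 25 were taken to pair the lines because libraries of a passage deviated together (mean r = 0.353, range 0.235 to 0.504, 6 pairs).

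All 10 enzymes were named. Of the wider list, the 2 highest and 2 lowest called fold changes per sub-list were named in each comparison of cell states, with Atf4 and Myc, and the 3 genes most like Tdh. Some results that this rule selects are not reported here. The members and lists were chosen with earlier results of these data known. Positions come from GENCODE on GRCm38 and promoters from RefSeq. Besides Tdh, Gldc, Shmt2, Psat1 and Psph overlap an annotated gene on the other strand, and Gcat, Mthfd2 and Mthfd1l one on the same strand, so their reads may be shared.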

Additional observations from a re-analysis of the deposited data

How the results depend on the processing

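Calls on the 10 enzymes kept their direction under every alternative run. Leaving out each library in turn gave 5 to 5 called enzymes for MEF against iPS, 1 to 1 for pre-iPS against iPS, 5 to 5 for pre-iPS against MEF and 0 to 0 for the clone and passage comparisons, although in pre-iPS against MEF Mthfd1l and Mthfd2 exchanged places without the passage 25 pre-iPS library. For the wider list the ranges were 40 to 42, 6 to 10 and 39 to 41. With an adjusted p alone the enzymes counted were 10, 4, 9, 1 (clone 1) and 5 (passage), and the wider list 66, 28 and 61. Housekeeping scaling moved the median fold change over all genes in MEF against iPS from -0.087 to 0.302 and in pre-iPS against MEF from 0.058 to -0.358. The split of all calls, higher and lower, then moved from 3690 and 4547 to 5085 and 3618, and from 3820 and 3563 to 2817 and 5025. Quantile normalization moved that of pre-iPS against iPS from 804 and 1977 to 1366 and 1499. Housekeeping scaling gave Mthfd1l -0.78 and Mthfd2 1.26 in MEF against iPS and 0.63 and -1.38 in pre-iPS against MEF. Quantile normalization gave Shmt2 1.13 in pre-iPS against MEF. The housekeeping genes themselves differed between MEF and the other libraries. Gapdh was at 33330 and 32260 in MEF against 55980 to 68640 elsewhere, and Hprt at 3168 and 3285 against 4875 to 6630. Tbp was at 1197 and 1201 against 1255 to 1599. Actb went the other way, at 88340 and 91790 against 61280 to 77830. Scaling to these genes carries their own differences into every other gene. The cause of the other shifts was not tested.

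With the replicate block, passage as a block over the 8 libraries without MEF, 1 enzyme was called in pre-iPS against iPS and 0 in each clone comparison, as without it. Fits with and without the block thus also differ in the use of MEF. Over all genes the block gave 564 calls for both clones against control (360 without), 490 for clone 1 (240), 711 for clone 2 (413) and 327 between clones (165). Leaving out 1 library gave 120 to 419, 63 to 264, 126 to 377 and 14 to 260 calls over all genes in these comparisons, and 94 to 288 between passages (289 in the main analysis). The shares of all genes then ran from 0.703% to 2.45%, 0.369% to 1.55%, 0.738% to 2.21%, 0.082% to 1.52% and 0.551% to 1.69%. Fits on only the lines compared gave 134, 0 (2525 at an unadjusted p under 0.05), 17 and 6. A mean of at least 50 gave 1758 calls in pre-iPS against iPS (2781 in the main analysis) and 106 between clones. DESeq2 gave 510, 667 and 434 for clone 1, clone 2 and between clones.

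Of 35 sign changes of single fold changes, 30 came from leaving out a library, and all were in differences that were not called. Housekeeping scaling gave Shmt2 0.01 in MEF against iPS, Psph 0.01 in clone 1 against control and Mthfd1l -0.02 in clone 2 against clone 1. Quantile normalization gave Phgdh 0.25 in pre-iPS against MEF and -0.01 in clone 2 against control. The others are ranges over left-out libraries. In both clones against control the ranges were Mthfd2 -0.08 to 0.10, Phgdh -0.01 to 0.16, Psph -0.07 to 0.18, Gcat -0.08 to 0.29. In clone 1 against control the ranges were Psat1 -0.10 to 0.26, Psph -0.16 to 0.10, Gcat -0.22 to 0.52, Mthfd1l -0.02 to 0.23. In clone 2 against control the ranges were Gcat -0.06 to 0.18, Gldc -0.57 to 0.22, Phgdh -0.07 to 0.11, Shmt2 -0.13 to 0.29. In clone 2 against clone 1 the ranges were Tdh -0.08 to 0.67, Mthfd1l -0.09 to 0.17, Gcat -0.46 to 0.28, Shmt2 -0.31 to 0.11. In pre-iPS against iPS the ranges were Mthfd2 -0.39 to 0.20, Mthfd1l -0.34 to 0.08, Psat1 -0.31 to 0.28.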
